A study of Homo sapiens with 3 samples.

Results

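The HOX cluster genes are homeobox transcription factors that lie side by side in 4 clusters, and all 39 of them were measured on the arrays of this study, out of 23595 named genes. They were chosen by name alone, as every gene called HOX with a cluster letter from A to D and a number and nothing else, which gave 11 genes of the HOXA cluster on chromosome 7, 10 of HOXB on chromosome 17, 9 of HOXC on chromosome 12 and 9 of HOXD on chromosome 2. The RNA came from HaCaT cells, a spontaneously immortalized human keratinocyte line grown in RPMI-1640 with serum, and was hybridised to single-colour arrays labelled with Cy3. One group had received all-trans retinoic acid, the active metabolite of vitamin A, together with nicotinamide, the amide form of vitamin B3 (ATRA+NIC). Another had received all-trans retinoic acid without nicotinamide (ATRA), and the last group was the control. The labels' protocol gives 1 µM ATRA for 36 h, no nicotinamide dose is given in the sources used here, and no group had nicotinamide without ATRA. Each group had 1 array, so the values below have no error between cultures, no test between groups was possible, and every difference describes these 3 arrays.

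Along each HOX cluster the genes are ordered by paralogue number, and genes of low number are switched on earlier and nearer the head of the embryo than genes of high number. Retinoic acid is a known regulator of the clusters: it binds nuclear receptors that sit on response elements near several low-numbered genes, such as HOXB1, and in embryonal carcinoma cells low-numbered genes answer it before high-numbered ones. Polycomb proteins hold silent HOX genes in a closed state and Trithorax proteins keep active ones open. In adult skin, HOX expression keeps a record of position along the body, and HOXC13 is needed for hair and nail.

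A gene's intensity is the geometric mean over its transcripts, each of which was summarised from 3 probes; 20 of the HOX genes had more than 1 transcript and 19 had 1. Differences are given on the log2 scale with every transcript value under an intensity of 50 set to 50, the lowest value kept in the series' value table, unless they are called measured. A gene was counted as different at 2-fold or more. Median transcript intensities were 298 with ATRA+NIC, 302 with ATRA and 302 in the control, and random probes lay between 18.4 and 19.6. Probes of different genes cannot be compared in brightness, so levels are compared only between arrays. Labelling started from double-stranded cDNA with random primers, which does not keep the strand, so a HOX transcript and an antisense RNA across the same probes cannot be told apart. In these bulk samples, fewer cells with a transcript and less of it per cell cannot be told apart either. All 10 of 10 listed keratinocyte markers reached 50 on every array, including KRT5, KRT14 and TP63. The fibroblast markers PDGFRA, THY1, LUM and DCN, the melanocyte markers TYR and TYRP1 and the endothelial markers PECAM1, KDR and TEK lay under 50 on all arrays. Other markers of those lists did not: of 10 fibroblast markers, 5 reached 50 with ATRA+NIC, 3 with ATRA and 4 in the control, COL1A1, TWIST1 and TWIST2 on every array. Of 7 melanocyte markers, 5 did with ATRA+NIC, 3 with ATRA and 3 in the control, PMEL, MITF and SOX10 on every array. Of 5 endothelial markers, 2 did with ATRA+NIC, 1 with ATRA and 2 in the control, CDH5 on every array.

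On all 3 arrays, HOX genes reached an intensity of 50 about as often as all named genes. The counts differed between the 4 clusters. An intensity of 50 was reached by 28 HOX genes with ATRA+NIC (71.8%), 31 with ATRA (79.5%) and 28 in the control (71.8%). The shares of all named genes were 72.3% with ATRA+NIC, 72.4% with ATRA and 71.8% in the control. On all 3 arrays an intensity of 50 was reached by 27 of 39 (69.2%), against 68.1% of all named genes. With a floor of 100 the counts were 25 with ATRA+NIC, 21 with ATRA and 25 in the control. The ATRA array thus had the most HOX genes at 50 and the fewest at 100. The share of all named genes at 100 was not counted, so that second count has nothing to be set against. HOXA and HOXC were nearly complete, with 10 of 11 and 9 of 9 genes at or above 50 on every array. HOXB had 5 of 10 and HOXD 3 of 9. Probes of different genes cannot be compared in brightness, so these counts do not rank the clusters by expression. The 7 genes under 50 on every array were HOXA13, HOXB5, HOXB6, HOXB8, HOXD4, HOXD10 and HOXD12, with intensities from 13.3 to 48.9. Another 5 reached 50 on some arrays and stayed close to it: HOXB2, HOXB13 and HOXD9 on the ATRA array, HOXD8 on the ATRA+NIC array, and HOXD1 on the ATRA and control arrays. HOXA13, the last gene of its cluster and one of those that pattern the hand and foot, stood at 14.1 with ATRA+NIC, 13.3 with ATRA and 15.4 in the control, below the random probes. The plot of levels by array shows which genes lie above and under this floor.

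The ATRA array was set against the control array to ask which HOX genes differ with retinoic acid. No HOX gene was at least 2-fold higher, while 2.74% of all named genes were. At least 2-fold lower were 3 of 39, HOXC8, HOXD13 and HOXD11, or 7.69% of the HOX genes against 1.73% of all named genes. At 1.5-fold the same comparison had 1 HOX gene higher (7.59% of all genes) and 7 HOX genes lower, adding HOXA4, HOXC4, HOXC9 and HOXC11 (17.9% against 7.02%). Of the 28 HOX genes at or above 50 on both arrays, 9 were higher and 19 lower by any size (67.9% lower), against 46.9% and 53.1% of all such genes, and their median difference was -0.31, against -0.03 for all such genes. Over all 39 members, dim ones included, the median was -0.00, as that of all genes was.

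HOXC8 had the greatest difference of all HOX genes in this comparison. It is a mid-cluster gene (chr12:52689156-52692814 on hg18, the build of the array annotation) known from mouse work for thoracic vertebrae and the motor neurons of the forelimb. Its intensity was 477 with ATRA+NIC, 198 with ATRA and 672 in the control. The ATRA value is the low one of the set, and ATRA over control was -1.76 on the log2 scale, or 3.39-fold lower. Of 23595 genes, 38 were that far below the control or further, HOXC8 included. With nicotinamide added, HOXC8 was 2.41-fold higher than with ATRA alone (1.27), and it stayed 1.41-fold below the control. Both HOXC8 transcripts, which overlap, gave the same order of arrays, with 419 with ATRA+NIC, 191 with ATRA and 648 in the control for the first and 544 with ATRA+NIC, 206 with ATRA and 697 in the control for the second. Both comparisons use the ATRA array, so their values are not independent.

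HOXD13 (chr2:176665777-176668046, hg18), the last gene of its cluster and the gene mutated in human synpolydactyly, had the same order of arrays. Its intensity was 145 with ATRA+NIC, 69.1 with ATRA and 212 in the control. ATRA over control was -1.62, or 3.07-fold lower, and ATRA+NIC over ATRA was 1.07, or 2.10-fold higher. The ATRA value lies close to the floor of 50, and with a floor of 100 the differences shrank to -1.08 and 0.53. HOXD11 (chr2:176680329-176682562, hg18), which acts with HOXA11 in the mouse forearm, had an intensity of 107 with ATRA+NIC, 91.9 with ATRA and 204 in the control. Here the 2 arrays with retinoic acid were the low ones and the control stood apart: ATRA over control was -1.15 (2.22-fold lower), while ATRA+NIC over ATRA was only 0.21 and ATRA+NIC over control -0.94 (1.91-fold lower). HOXD13 and HOXD11 had 1 transcript each, so no other probe set on the array checks them.

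**Figure D1:**
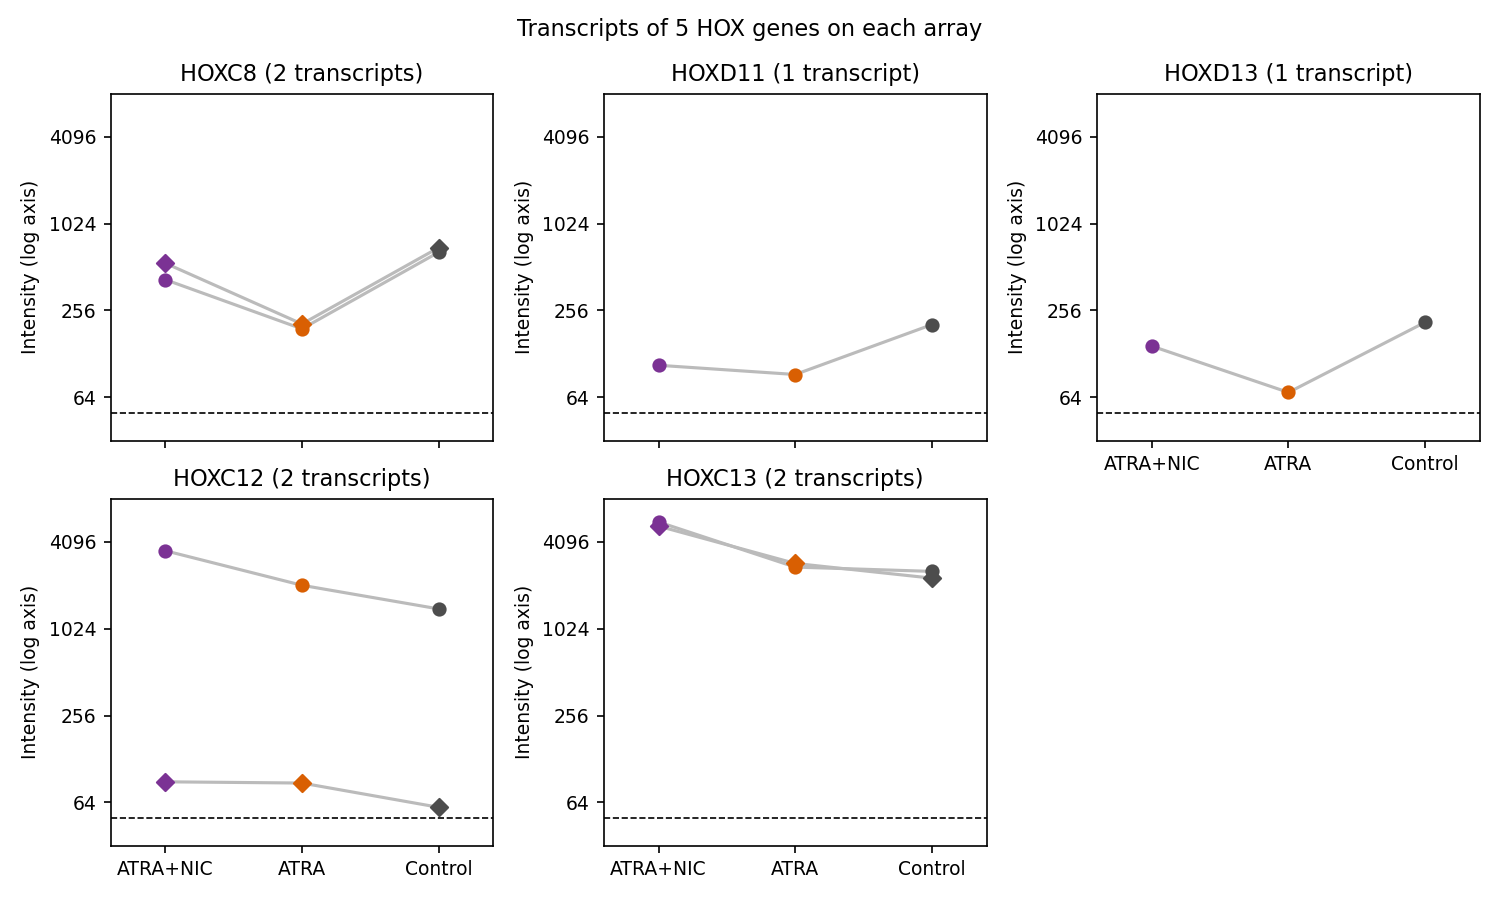
Intensity (log axis) of each transcript of HOXC8, HOXD11, HOXD13 and HOXC13, which differed at least 2-fold in some comparison, and of HOXC12, for cells with ATRA+NIC, with ATRA and in the control; each line is 1 transcript and the dashed line is an intensity of 50. Both HOXC8 transcripts and the HOXD13 transcript are lowest on the ATRA array, the HOXD11 transcript is highest on the control array, and both HOXC13 transcripts are highest on the ATRA+NIC array.

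The promoters of HOXD13 and HOXD11 are printed here because these genes differed past 2-fold. HOXC8 and HOXC13 also did, but had no promoter in the RefSeq table and could not be searched. The window that RefSeq gives for both HOXC4 and HOXC5 is printed because those neighbours were both lower with ATRA. Their measured transcripts start at 52696939 and 52713098 on hg18, so 1 window cannot lie at both starts. Each runs from 250 bases before to 50 after the transcription start in RefSeq on GRCh38.p14, plus strand: HOXD13 chr2:176092471-176092770, HOXD11 chr2:176107030-176107329 and HOXC4/HOXC5 chr12:54016638-54016937. Capitals mark matches on either strand to AGTTCA, a variant of the retinoic acid receptor's binding sequence unit, to TATAAA and to CCAAT.
HOXD13: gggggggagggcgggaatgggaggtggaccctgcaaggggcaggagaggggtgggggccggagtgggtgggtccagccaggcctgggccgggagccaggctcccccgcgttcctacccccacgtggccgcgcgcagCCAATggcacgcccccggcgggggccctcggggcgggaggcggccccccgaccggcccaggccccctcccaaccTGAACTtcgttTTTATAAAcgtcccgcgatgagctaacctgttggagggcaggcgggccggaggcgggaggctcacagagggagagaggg
HOXD11: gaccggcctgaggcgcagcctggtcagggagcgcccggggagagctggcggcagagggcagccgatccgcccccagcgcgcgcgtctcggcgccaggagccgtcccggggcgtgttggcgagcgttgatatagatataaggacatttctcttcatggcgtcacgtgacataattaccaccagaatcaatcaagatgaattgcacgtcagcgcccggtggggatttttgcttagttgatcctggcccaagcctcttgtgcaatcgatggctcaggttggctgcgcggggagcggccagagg
HOXC4/HOXC5: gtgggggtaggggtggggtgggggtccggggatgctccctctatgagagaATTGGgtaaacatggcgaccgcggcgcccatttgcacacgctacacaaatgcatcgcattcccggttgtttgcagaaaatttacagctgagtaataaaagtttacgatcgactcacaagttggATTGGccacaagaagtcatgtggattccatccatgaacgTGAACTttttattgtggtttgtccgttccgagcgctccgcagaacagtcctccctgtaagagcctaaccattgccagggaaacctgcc

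The 20 HOX genes with a promoter in the RefSeq table were searched on both strands, in 27 windows, beside all 35116 windows of the table. AGTTCA was in 6 of the 27 HOX windows, those of 5 genes (HOXA3, HOXC4, HOXC5, HOXD8 and HOXD13), and in 10.4% of all windows. HOXC4 and HOXC5 share 1 window, which is counted for each. In HOXD13 it lies on the minus strand beside a TATAAA match that overlaps a second one on the other strand. The unit AGGTCA was in none of the HOX windows and in 13.8% of all windows. Its direct repeats with a spacer of 2 or 5 bases were in 1 and 2 windows of the table. Their absence from the HOX windows follows from that of the unit they contain. Sequence outside the windows was not searched, so response elements lying further away could not be found. CCAAT was in 18 of the 27 HOX windows (17 genes) and 34.6% of all windows, and TATAAA in 5 of 27 (HOXA3, HOXA9, HOXA10 and HOXD13) and 11.5%. HOXD11 held none of these motifs. The matches describe letters in a short window and are not sites.

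Most other HOXC genes were also lower with ATRA than in the control, by less than 2-fold. From HOXC4 to HOXC11, a stretch delimited after the values were seen, all 7 genes were lower on the ATRA array than on the control array, with a median of -0.59, and this held under each scaling tried. HOXC4 stood at 1514 with ATRA+NIC, 1246 with ATRA and 2012 in the control. HOXC5 stood at 163 with ATRA+NIC, 120.4 with ATRA and 178 in the control, and HOXC6 at 845 with ATRA+NIC, 573 with ATRA and 858 in the control. Their differences of ATRA from control were -0.69, -0.56 and -0.58. The control was the brightest array for HOXC4 and HOXC5, while for HOXC6 it lay within 0.02 of ATRA+NIC and 2 of 3 transcripts were brightest with ATRA+NIC. The annotated HOXC4 transcript spans 38692 bases and covers HOXC5 and HOXC6 whole, so these signals may share RNA and are not independent. HOXC9, which in mouse sets the thoracic motor columns, had an intensity of 1659 with ATRA+NIC, 1081 with ATRA and 1689 in the control, with -0.64 between ATRA and control and 0.62 between ATRA+NIC and ATRA. HOXC10, a gene of lumbar motor neurons in mouse, stood at 3642 with ATRA+NIC, 3578 with ATRA and 4725 in the control, so that it was lower on both arrays with retinoic acid (-0.40 for ATRA and -0.38 for ATRA+NIC, each against control). HOXC11, next to it, stood at 5527 with ATRA+NIC, 3528 with ATRA and 5309 in the control and was low on the ATRA array alone (-0.59 against control).

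At the high-numbered end of the cluster the order of the arrays was another. HOXC13 (chr12:52618842-52626595, hg18), which acts on hair keratin genes and whose loss causes a hair and nail dysplasia in people, had an intensity of 5456 with ATRA+NIC, 2824 with ATRA and 2426 in the control. The ATRA+NIC array stood apart, at 2.25-fold over control (1.17) and 1.93-fold over ATRA (0.95), while ATRA lay 0.22 above control. Its transcripts, which overlap, read 5641 with ATRA+NIC, 2743 with ATRA and 2561 in the control for 1 and 5277 with ATRA+NIC, 2908 with ATRA and 2299 in the control for the other. HOXC12, its neighbour, stood at 562 with ATRA+NIC, 423 with ATRA and 288 in the control, and was highest with ATRA+NIC (1.95-fold over control, 0.96) and between with ATRA. This mean joins 2 transcripts. The first read 3561 with ATRA+NIC, 2051 with ATRA and 1406 in the control, a measured 0.80 for ATRA+NIC over ATRA. The second read 88.8 with ATRA+NIC, 87.0 with ATRA and 59.1 in the control, with 0.03 for ATRA+NIC over ATRA. The first overlaps the second by 34 of its 2429 bases, so they may not report the same RNA.

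**Figure D2:**
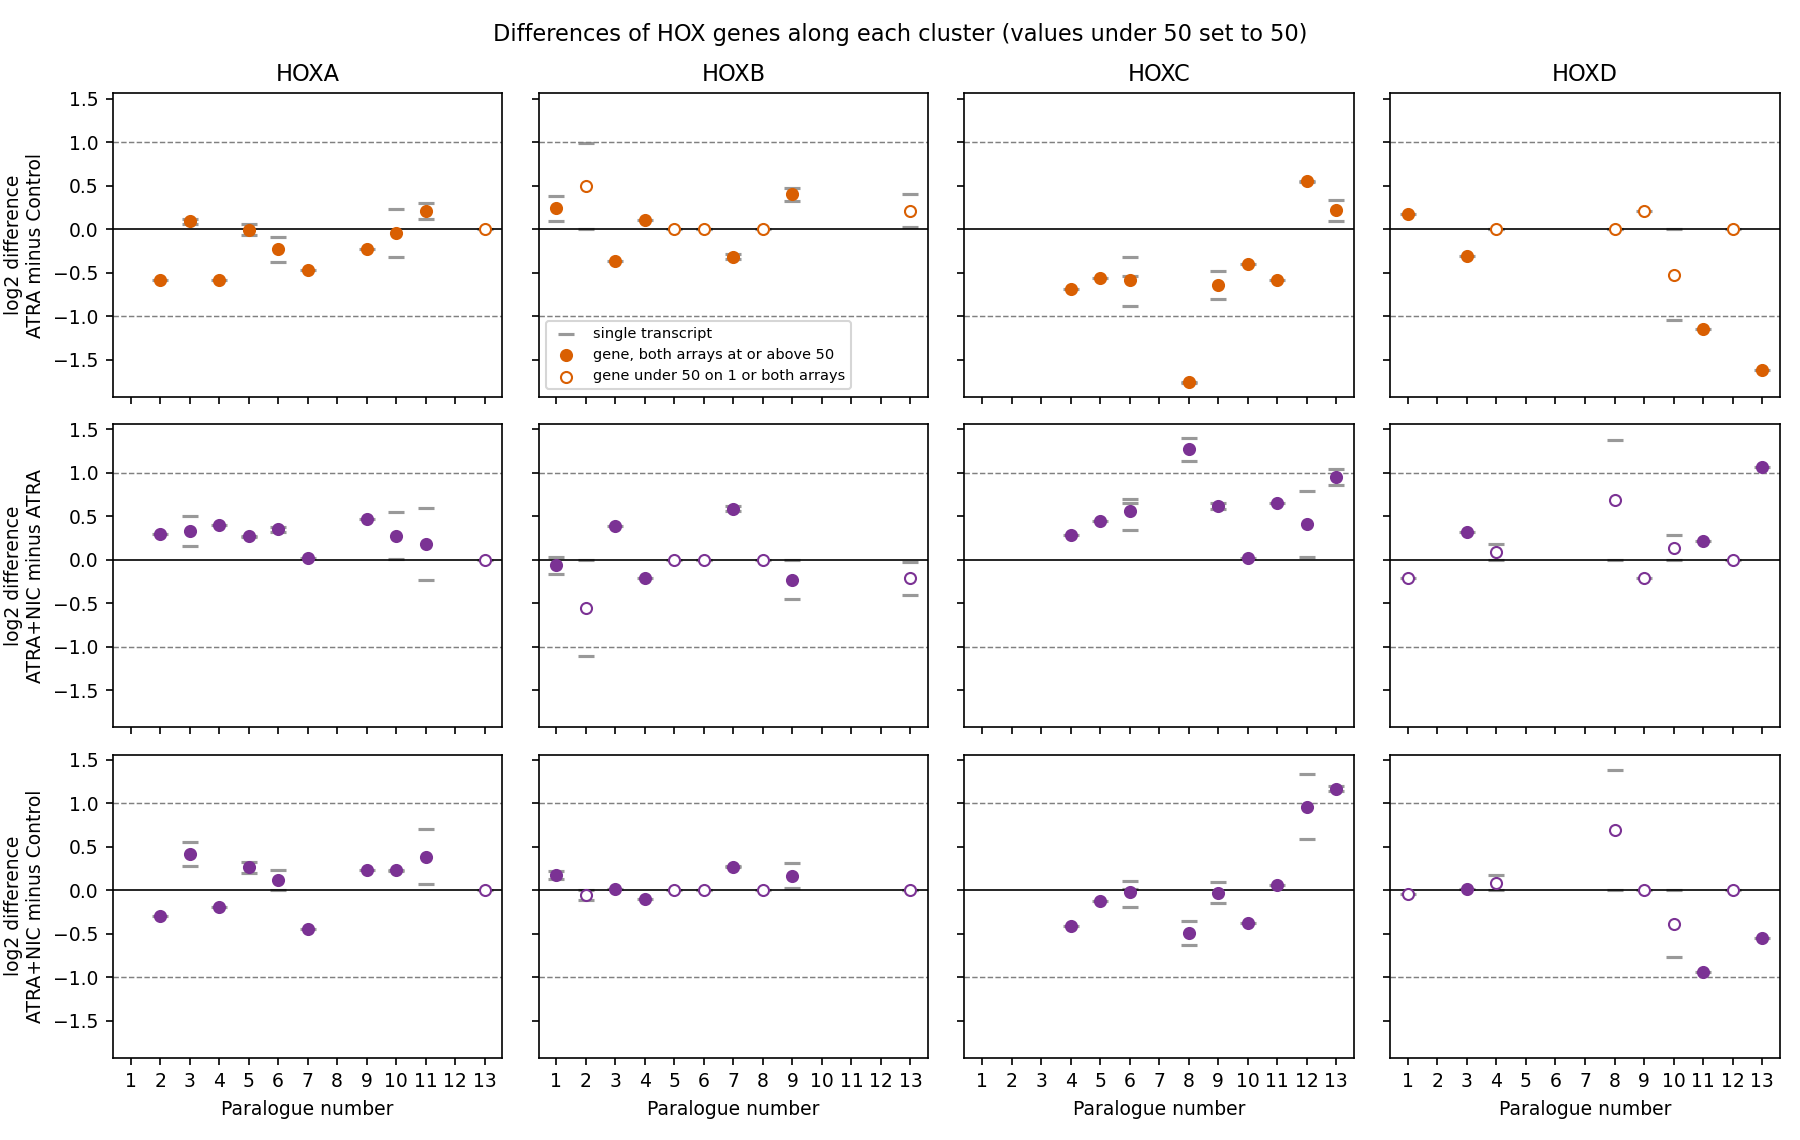
Log2 differences of 38 of the 39 HOX genes for ATRA minus control, ATRA+NIC minus ATRA and ATRA+NIC minus control, by cluster and paralogue number, with values under 50 set to 50 and dashed lines at 2-fold. Filled points are genes at or above 50 on both arrays, open points the others, and grey marks single transcripts. The HOXC genes from HOXC4 to HOXC11 lie under 0 for ATRA minus control (median -0.59) and above 0 for ATRA+NIC minus ATRA (median 0.56).

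In the HOXA cluster, HOXA2 and HOXA4 lay furthest below control on the ATRA array. HOXA2, which sets the identity of the second branchial arch, had 274 with ATRA+NIC, 223 with ATRA and 335 in the control, lower with ATRA (-0.58). HOXA3, needed for the thymus and parathyroid, had 1012 with ATRA+NIC, 804 with ATRA and 756 in the control and differed by 0.09. HOXA4 had 762 with ATRA+NIC, 577 with ATRA and 866 in the control (-0.59 for ATRA against control).

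Further along HOXA the differences of ATRA from control were smaller. HOXA5, needed for lung and trachea in mouse, had 463 with ATRA+NIC, 385 with ATRA and 386 in the control, and HOXA6 had 972 with ATRA+NIC, 763 with ATRA and 895 in the control. HOXA7, which has been tied to the control of keratinocyte differentiation, had 1920.0 with ATRA+NIC, 1892 with ATRA and 2609.8 in the control and was lower on both arrays with retinoic acid (-0.46 for ATRA and -0.44 for ATRA+NIC against control). HOXA9, known from blood stem cells, had 3138 with ATRA+NIC, 2274 with ATRA and 2673 in the control. HOXA10, known from the uterus, had 6224 with ATRA+NIC, 5145 with ATRA and 5305 in the control. HOXA11, a gene of the forearm and uterus, had 366 with ATRA+NIC, 322 with ATRA and 279 in the control. From HOXA9 to HOXA11 no gene-level difference between any pair of arrays was larger than the 0.46 of HOXA9 for ATRA+NIC over ATRA. Single transcripts went further. The HOXA11 transcripts took opposite signs for ATRA+NIC over ATRA (-0.23 and 0.59 measured) and read 0.07 and 0.71 for ATRA+NIC over control. The HOXA10 transcripts took opposite signs for ATRA against control (0.23 and -0.32 measured) and read 0.01 and 0.54 for ATRA+NIC over ATRA.

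HOXB and HOXD had fewer genes above the floor. HOXB1, which sets the identity of the hindbrain segment of the facial nerve and carries a known retinoic acid response element, had 92.8 with ATRA+NIC, 97.1 with ATRA and 82.1 in the control, a difference of only 0.24 for ATRA against control. HOXB3 had 129 with ATRA+NIC, 98.7 with ATRA and 128 in the control and HOXB4, used to expand blood stem cells, had 230.0 with ATRA+NIC, 265 with ATRA and 246 in the control. HOXB7, a gene tied to cell proliferation, had 1247 with ATRA+NIC, 829 with ATRA and 1031 in the control. It was 0.59 higher on the log2 scale with ATRA+NIC than with ATRA, and both of its transcripts were (0.56 and 0.62). Near the floor, HOXB9 had 63.1 with ATRA+NIC, 73.9 with ATRA and 51.4 in the control, and HOXB2 had 28.6 with ATRA+NIC, 54.9 with ATRA and 34.9 in the control. HOXB13, known from the prostate, had 34.8 with ATRA+NIC, 58.0 with ATRA and 41.3 in the control. For these 3 the ATRA array was the highest. In HOXB2 this rested on 1 transcript (29.0 with ATRA+NIC, 107 with ATRA and 53.9 in the control), while the other stayed under 50 (28.3 with ATRA+NIC, 28.1 with ATRA and 22.6 in the control).

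In HOXD, HOXD3 had 104 with ATRA+NIC, 82.9 with ATRA and 103 in the control, with -0.31 for ATRA against control. HOXD1 had 36.6 with ATRA+NIC, 58.0 with ATRA and 51.4 in the control and HOXD9 had 48.1 with ATRA+NIC, 57.8 with ATRA and 47.3 in the control, so that both lay near or under the floor. HOXD8 had 57.5 with ATRA+NIC and stayed under 50 on the other arrays. With values under 50 set to 50, it was 1.61-fold higher with ATRA+NIC than on each of them. This rested on 1 of 2 overlapping transcripts, which read 130.2 with ATRA+NIC, 36.0 with ATRA and 21.0 in the control, while the other read 25.4 with ATRA+NIC, 28.4 with ATRA and 16.0 in the control. HOXD10, counted under the floor by its mean, likewise had 1 transcript that passed it on some arrays (60.7 with ATRA+NIC, 48.5 with ATRA and 103 in the control) and 1 that stayed under it (20.9 with ATRA+NIC, 21.3 with ATRA and 12.4 in the control). HOXD4, also under the floor by its mean, had 1 transcript at 56.7 with ATRA+NIC, 43.8 with ATRA and 23.9 in the control. Its other transcript read 17.1 with ATRA+NIC, 45.9 with ATRA and 23.2 in the control.

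ATRA+NIC was then set against ATRA, which asks how the arrays differ when nicotinamide was added to retinoic acid. HOXC8 and HOXD13 were at least 2-fold higher, or 2 of 39 HOX genes (5.13%, against 1.22% of all named genes), and none was at least 2-fold lower, against 2.74% of all named genes. At 1.5-fold 7 were higher, HOXB7, HOXC8, HOXC9, HOXC11, HOXC13, HOXD8 and HOXD13 (6.31% of all genes), and none lower (7.16%). Of 27 HOX genes at or above 50 on both arrays, 24 were higher by any size (88.9%, against 55.2% of all such genes) and 3, HOXB1, HOXB4 and HOXB9, were lower (44.8% of all such genes). The median of the 27 was 0.33 against 0.05 for all such genes, and the median over all 39 was 0.27 against 0.00 for all genes.

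By cluster, all 9 HOXC genes were higher with ATRA+NIC than with ATRA (median 0.56), with the exception of HOXC10 once both arrays were shifted to the same median of genes at or above 50. The 10 HOXA genes above the floor were all higher (cluster median with HOXA13 0.27), but 8 of 10 when each gene was read from its brightest transcript and 9 of 10 after that shift, which turned HOXA7. In HOXB 2 of 5 genes above the floor were higher, and in HOXD 3 of 3. This comparison uses the same ATRA array as ATRA against control, so the HOXC genes' differences of opposite sign in the 2 comparisons are not separate observations. Of the 20 HOX genes with more than 1 transcript, measured values disagreed in sign for 4 in ATRA minus control and for 8 in ATRA+NIC minus ATRA. Among those 8 were HOXB2, HOXB6, HOXD4, HOXD8 and HOXD10, each with a transcript under 50 on both arrays. Scatter of transcripts within genes is a technical spread on the log2 scale. For transcripts at or above 50 its pooled SD in these comparisons was 0.20 over 13 HOX genes and 0.27 over 14. Over all named genes it was 0.32 and 0.30. Differences under about this size are within the disagreement between transcripts of 1 gene. The HOX genes pooled include HOXC12, whose transcripts may not report the same RNA.

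**Figure D3:**
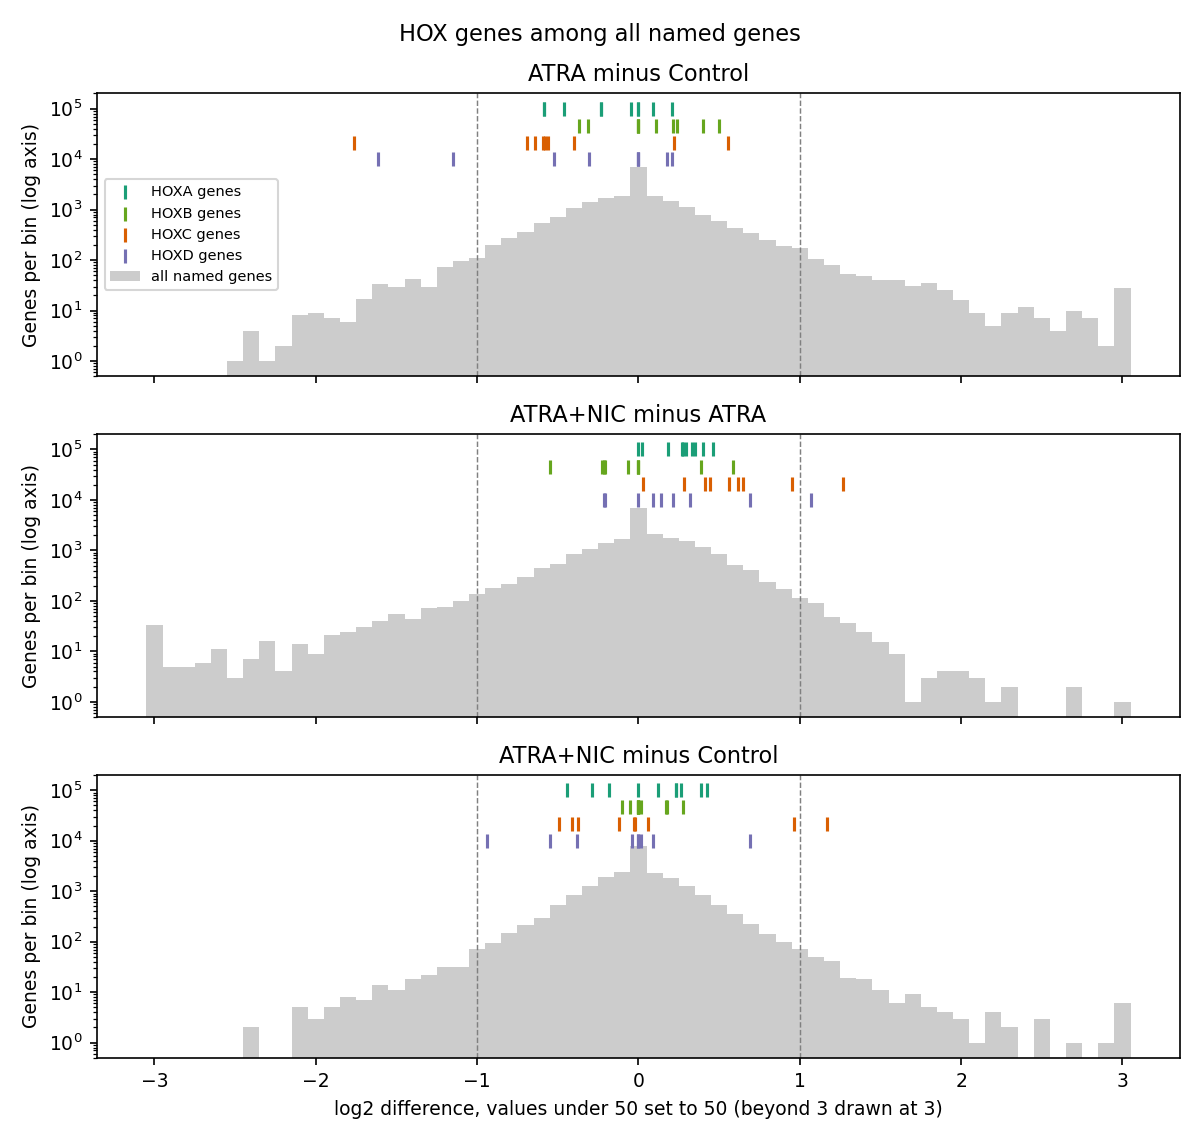
Number of named genes (log axis) by log2 difference for each pair of arrays, in grey, with 38 of the 39 HOX genes as coloured ticks by cluster and dashed lines at 2-fold. HOXC8, HOXD13 and HOXD11 lie beyond the lower line for ATRA minus control, HOXC8 and HOXD13 beyond the upper line for ATRA+NIC minus ATRA, and HOXC13 beyond it for ATRA+NIC minus control.

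ATRA+NIC was also set against control. HOXC13 was at least 2-fold higher, as 1 of 39 HOX genes (2.56%, against 0.886% of all named genes), and none was at least 2-fold lower (0.797%). At 1.5-fold 4 were higher, HOXC12, HOXC13 and HOXD8 among them (3.89% of all genes), and HOXD11 lower (3.6%). Of 27 HOX genes at or above 50 on both arrays, 15 were higher and 12 lower by any size, against 49.5% and 50.5% of all such genes, with a median of 0.02 against -0.00. The HOXC genes from HOXC4 to HOXC11 had a median of -0.12 here. HOXC9, HOXC6 and HOXC11 lay within 0.06 of the control, HOXC8 lay at -0.49, HOXC4 at -0.41 and HOXC10 at -0.38. This comparison shares the control array with ATRA against control and the ATRA+NIC array with ATRA+NIC against ATRA.

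By position within the clusters, paralogues 1 to 3 (8 genes) had a median of 0.13 with ATRA relative to control and 0.18 for ATRA+NIC against ATRA. Paralogues 4 to 8 (15 genes) had -0.23 and 0.28, and paralogues 9 to 13 (16 genes) had -0.02 and 0.20. These medians include genes whose differences the floor set to 0. Such were HOXB5, HOXB6 and HOXB8 in paralogues 4 to 8, and HOXA13 and HOXD12 in paralogues 9 to 13. For ATRA against control alone, the floor also set HOXD4 and HOXD8, of paralogues 4 to 8, to 0 (0.93 and 0.80 measured). Among paralogues 1 to 3, HOXA3, HOXB1, HOXB2 and HOXD1 were higher with ATRA than in the control, and HOXA2, HOXB3 and HOXD3 were lower. HOXC has no gene of low number, so number and cluster are not separate in these medians. By cluster the medians for ATRA against control were -0.04 in HOXA, 0.05 in HOXB, -0.58 in HOXC and 0.00 in HOXD. The HOXD value rests on genes at the floor: over genes at or above 50 on both arrays the medians were -0.14 in HOXA (10 genes), 0.11 in HOXB (5), -0.58 in HOXC (9) and -0.73 in HOXD (4). For ATRA+NIC against ATRA they were 0.27 in HOXA, -0.03 in HOXB, 0.56 in HOXC and 0.14 in HOXD, or 0.32 over the 3 HOXD genes at or above 50 on both arrays.

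CYP26A1 and CYP26B1, enzymes that degrade retinoic acid and are known to be induced by it, were higher on both arrays with ATRA than on the control array. CYP26A1 had 595 with ATRA+NIC, 342 with ATRA and 77.3 in the control and CYP26B1 had 2445 with ATRA+NIC, 1851 with ATRA and 432 in the control, which made them 4.42-fold and 4.29-fold higher with ATRA than in the control. They were the 2 of 9 listed receptor and CYP26 genes past 2-fold there. The 9 PBX, MEIS and PKNOX genes, whose proteins bind DNA with HOX proteins, had no member past 2-fold in any comparison, and those furthest from control with ATRA were MEIS3 (-0.54) and PBX4 (0.27). Of 11 Trithorax genes and H3K27 demethylases, both demethylases, KDM6A and KDM6B, were higher with ATRA than in the control (2.14-fold and 2.95-fold) and lower with ATRA+NIC than with ATRA (3.22-fold and 2.77-fold). Of 27 Polycomb genes, 1 was at least 2-fold higher with ATRA than in the control and 1 at least 2-fold lower with ATRA+NIC than with ATRA. PHF1, under 2-fold, differed by 0.90 between ATRA and control, and CBX6 was 2.05-fold higher with ATRA+NIC than with ATRA.

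Among genes around the clusters, the antisense gene HOXB-AS3 was the 1 of 21 listed noncoding genes on the array, and it had 168 with ATRA+NIC, 208 with ATRA and 75.4 in the control. It was 2.76-fold higher with ATRA and 2.23-fold higher with ATRA+NIC, each against control, while HOXB6, whose annotated span it overlaps, stayed under 50 on all arrays. None of 12 flanking genes passed 2-fold, and those furthest from control with ATRA were CBX5 (-0.57) and EVX1 (-0.53). Among 22 other homeobox genes of the Antennapedia class, DLX3, a regulator of epidermal differentiation, and MSX1 were 2.07-fold and 2.00-fold higher with ATRA than in the control. Markers differed between the arrays as well. The summed intensity of the 10 keratinocyte markers was 77907 with ATRA+NIC, 83506 with ATRA and 118867 in the control. Their median difference of ATRA from control was -0.21, with 1 marker, KRT5, at least 2-fold lower (-1.57) and 1, KRT17, at least 2-fold higher (1.01). With ATRA+NIC, 2 keratinocyte markers were at least 2-fold lower than with ATRA and none higher. Of 7 leukocyte markers, 4 reached 50 with ATRA+NIC, 6 with ATRA and 4 in the control. Their sums were 2925 with ATRA+NIC, 4783 with ATRA and 2433 in the control. The leukocyte markers' median difference of ATRA from control was 0.94, with 2 at least 2-fold higher and none lower. With ATRA+NIC, 3 of them were at least 2-fold lower than with ATRA and none higher. The 5 endothelial markers summed to 3370 with ATRA+NIC, 2649 with ATRA and 329.6 in the control, and CDH5 made up 3263 of this with ATRA+NIC, 2534 with ATRA and 209 in the control. The 10 fibroblast markers summed to 1476 with ATRA+NIC, 1540 with ATRA and 1407 in the control, and the 7 melanocyte markers to 704 with ATRA+NIC, 557 with ATRA and 452 in the control. Their part in the HOX differences was not tested.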

How the data were processed

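RNA of 3 HaCaT cultures was measured on single-colour NimbleGen arrays, 1 per group. The deposited intensity of each transcript is an RMA call over 3 probes, per the file headers, on a linear scale. Its software and version were not stated in the sources used here. A further deposited column, a score headed as a standard error, has no stated unit and was not used. The authors' value table holds the same intensities for the 31275 transcripts at or above 50 on all arrays, with relative differences of at most 9.14e-07.

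Of 45033 transcripts 42947 had a gene name, and 60 belonged to the 39 HOX genes. Of 23619 gene numbers 20230 matched a RefSeq symbol, HOX genes included, and other genes kept the name in the files. Coordinates are on hg18, as in the files, and promoters are RefSeq's on GRCh38.p14. Levels are means of log2 intensity over transcripts, values under 50 set to 50, without further scaling. With 1 array per group no test was run and the number of arrays limits the precision. HOX genes at or above 50 on at least 1 array are named with their values, those past 2-fold by transcript. In the other lists, cell type markers apart, members past 2-fold and the 2 furthest from control with ATRA are named. The values of 2 genes of these lists, 1 of them a HOX gene, are not reported here, though counts and medians include them. The members and lists were chosen with earlier results of these data known. Alternatives were no floor or a floor of 100, an offset of 100, the brightest or median transcript, the value table, median scaling and 1.5-fold. Python 3.11.15, pandas 2.3.3, numpy 2.4.6 and matplotlib 3.10.9 were used.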

Additional observations from a re-analysis of the deposited data

How the results depend on the processing

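With 1 array per group, differences between treatments and between single cultures cannot be told apart, and there was no replicate to leave out. No paired analysis was possible because each group has 1 array. Folds of genes near 50 rest on the floor.

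None of the 2-fold differences changed direction under any alternative, while HOXC10 and HOXA7 turned below 0 for ATRA+NIC against ATRA under the shift named last. For ATRA against control, 3 HOX genes were at least 2-fold lower, 4 with the brightest transcript, which added HOXD10, 1 with an offset of 100 and 7 at 1.5-fold. None was at least 2-fold higher, and 1 was at 1.5-fold. For ATRA+NIC against ATRA, 2 were at least 2-fold higher, 4 with the brightest transcript, 0 with an offset of 100, 1 with a floor of 100 and 7 at 1.5-fold. None was lower, and 1, HOXB2, with the brightest transcript. For ATRA+NIC against control, 1 was higher, 2 with no floor, 3 with the brightest transcript and 4 at 1.5-fold, and none was lower, 1 at 1.5-fold. With the offset, which shrinks low values by construction, ATRA against control was -1.37 for HOXC8, -0.66 for HOXD11 and -0.88 for HOXD13, and ATRA+NIC against ATRA was 0.95 for HOXC8 and 0.53 for HOXD13. The other counts moved with the settings themselves. A floor of 100 raised the HOXD13 value with ATRA (69.1) to 100, and the brightest transcript leaves out a gene's other transcripts. Without a floor, the HOXD8 values under 50 entered as measured, and 1.5-fold is a looser limit. Shifting arrays to the same median of genes at or above 50, an alternative chosen after seeing the data, moved no count at 2-fold.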

Other observations

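Some transcripts inside the clusters belong to no HOX gene. LOC643903, at chr7:27122157-27122802 on hg18 within the span of HOXA3, had an intensity of 582 with ATRA+NIC, 120.0 with ATRA and 369 in the control, a measured log2 difference of -1.62 with ATRA relative to control and 2.28 for ATRA+NIC against ATRA. An unnamed transcript at chr7:27121491-27129028 had 543 with ATRA+NIC, 267 with ATRA and 277 in the control, or 1.02 for ATRA+NIC against ATRA. In HOXB, LOC644695 had 150.4 with ATRA+NIC, 139 with ATRA and 76.7 in the control, or 0.97 for ATRA+NIC and 0.86 for ATRA, each against control.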
